A study of Mus musculus with 8 samples.

Results

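The 38 genes described here are interferon-stimulated genes, a set named by symbol and found among the 56749 features counted in all 8 libraries. Each symbol matched 1 feature. The material was nuclei sorted from snap-frozen visceral white fat of mice, read by droplet RNA sequencing, in which a unique molecular identifier (UMI) marks each captured RNA molecule. The mice formed 4 groups of 2. The mCherry SD mice (rep144 and rep146) had the genotype p21+/mCherry and ate a standard diet (SD). The mCherry HFD mice (rep128 and rep129) had the same genotype and ate a high-fat diet (HFD). The Tert HFD mice (rep134 and rep136) were p21+/mCherry-Tert and the TertCi HFD mice (rep138 and rep140) p21+/mCherry-TertCi, both on the high-fat diet. All groups, the controls included, therefore carried a modified p21 allele beside a + allele, and p21, the product of Cdkn1a, is a cell-cycle inhibitor. Tert encodes the catalytic subunit of telomerase. The labels do not spell out what separates TertCi from Tert, nor give the age or sex of the mice. Per the series' design text the transgenes are driven by the p21 promoter, so that only cells with an active p21 promoter should make them. That text speaks of the stromal vascular fraction and of p21+/- mice, whereas the labels give visceral fat and p21+/mCherry. The labels were followed, and adipocyte-like nuclei were present in every library.

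Type I interferons bind the receptor made of Ifnar1 and Ifnar2. Through the kinases Jak1 and Tyk2 this leads to a transcription complex that holds Stat2 and Irf9 and binds interferon-stimulated response elements in the promoters of target genes. The targets include sensors of foreign nucleic acid, enzymes that degrade or block viral RNA, and feedback inhibitors such as Usp18. In adipose tissue, macrophages respond to interferon, and so do stromal progenitors, endothelial cells and adipocytes.

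The sequence by which these genes are known is the response element itself, whose core holds repeated GAAA words. The motif searched was GAAA, any 2 bases, then GAAA again; it was looked for on both strands, overlaps counted, in the window from 250 bases before to 50 after each gene's start. RefSeq windows (build GRCm38.p6) were given for 30 of the 38 members, and 16 of these 30 (53.3%) held the motif. It was held by 1079 of all 27025 genes with such windows (3.99%). No window was used for Usp18, Zbp1, Oas2, Ifi204, Mx1, Mx2, Parp9 and Parp14. A match is a description of letters and not a bound site. The stretches below are given because the rare nuclei described at the end hold over 10% of the UMIs of Isg15, Ifit1, Ifit3 and Rsad2, Oas1a and Ifi207 separate macrophages from adipocytes, and Slfn5 was higher in progenitor-like and endothelial-like than in macrophage-like nuclei. Capitals mark the motif, all runs are written 5′ to 3′ on the gene's strand, and TTTC, any 2 bases, TTTC is the motif read on the other strand.
Isg15, chr4:156200855-156200916, minus strand: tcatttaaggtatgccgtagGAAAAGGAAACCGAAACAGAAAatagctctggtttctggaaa
Ifit1, chr19:34640765-34640833, plus strand: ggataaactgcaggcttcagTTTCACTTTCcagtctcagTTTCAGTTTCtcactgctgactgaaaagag
Ifit3, chr19:34583353-34583436, plus strand: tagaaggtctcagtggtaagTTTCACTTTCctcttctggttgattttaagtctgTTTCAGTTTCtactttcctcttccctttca
Oas1a, chr5:120907526-120907565, minus strand: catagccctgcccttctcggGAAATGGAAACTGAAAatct
Rsad2, chr12:26456543-26456592, minus strand: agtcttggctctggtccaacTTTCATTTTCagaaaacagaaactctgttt
Slfn5, chr11:82951927-82951976, plus strand: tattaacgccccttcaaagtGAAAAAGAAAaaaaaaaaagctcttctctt
Ifi207, chr1:173741821-173741870, minus strand: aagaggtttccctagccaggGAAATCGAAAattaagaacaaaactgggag
The Isg15 stretch holds 3 overlapping matches and the Ifit1, Ifit3 and Oas1a stretches 2 each. The matching stretch of Ifit3b (chr19:34607749-34607832) has the same letters as that of Ifit3, its near-identical neighbour, so reads of this pair may have been split between them. The same may hold for the Ifi200 cluster on chromosome 1 (Ifi202b, Ifi203, Ifi204, Ifi207, Ifi213) and for the Slfn and Oas families, whose levels are therefore uncertain.

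The libraries held 23378488 to 139749876 UMIs, and 30209 nuclei were kept. The median UMIs per nucleus ran from 1682 in Tert HFD rep136 to 7133.5 in Tert HFD rep134. At most 16 cell barcodes were shared between any pair of libraries. Tert was counted at 2.01 to 3.98 CPM (counts per 1000000 UMIs, over all barcodes) and lay no higher in the Tert HFD mice (2.01 and 2.66) than in the mCherry HFD mice (3.27 and 3.58), so these 3′ tags do not check the genotype. The mCherry feature had 25 UMIs in all. Cdkn1a ran from 1.57 and 3.19 CPM on the standard diet to 14.3 and 17.1 in mCherry HFD, with 4.28 to 8.48 in the other high-fat mice. In Tert HFD rep136, 96.0% of macrophage-like nuclei fell into a subset that also carried adipocyte genes, against 0.123% to 44.7% in the other mice, so the Tert calls are also given without it. Members summed to 725 to 1387 CPM in nuclei and to 812 to 1574 CPM in droplets of at most 100 UMIs, which hold mostly free RNA. Free RNA thus carried the members at about the level of the nuclei as a whole, and its values are given beside the main calls.

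Macrophage-like nuclei carried most members grouped under RNA and DNA sensing at a higher level than adipocyte-like nuclei of the same mice. A few members were commonest elsewhere. Compared in 8 mice with the mouse as a block, 22 of the 28 members tested were higher in macrophage-like nuclei and 2 were lower (quasi-likelihood test of edgeR, p adjusted by Benjamini-Hochberg under 0.05). Of all 12222 genes tested, 65.2% differed in either direction with 31.7% higher and 33.5% lower, so a difference between these classes was common. The median log2 difference was 1.70 over the members and -0.03 over all genes. The clusters were made with interferon genes left out, but genes that vary with them were kept.

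**Figure D1:**
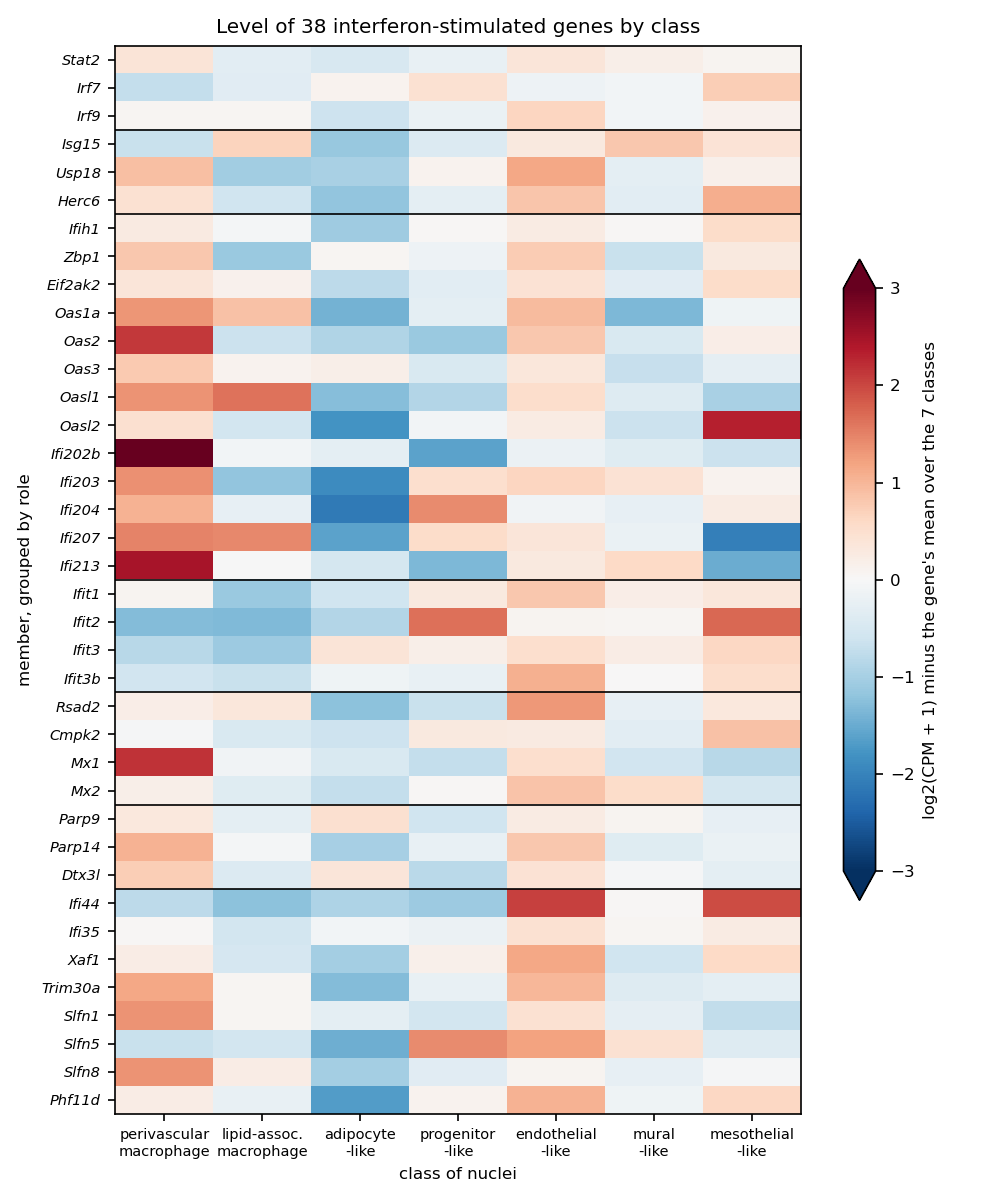
Heat map of the 38 members (vertical axis, grouped by role) in 7 classes of nuclei (horizontal axis). Colour gives log2(CPM + 1) of the mean over mice minus the gene's own mean over the classes, so rows cannot be compared in level. Ifi202b, Ifi213, Oas2 and Mx1 are highest in perivascular macrophages, Slfn5 and Ifit2 are high in progenitor-like nuclei, and Oasl2 is highest in mesothelial-like nuclei.

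The largest differences were in members grouped here under RNA and DNA sensing. Ifi207, a gene of the Ifi200 cluster, had a lowest, median and highest level of 306, 386 and 462 CPM over the 8 mice in macrophage-like nuclei. In adipocyte-like nuclei the same values were 19.2, 43.4 and 101 CPM, so that no mouse overlapped, and the log2 difference was 3.01 ± 0.17 (SE). For Ifi203 of the same cluster it was 2.86 ± 0.22, for Ifi204 it was 2.73 ± 0.19, and for Ifi202b 3.75 ± 0.38. Oas1a and Oas2 make the 2-5A messengers that switch on RNase L, and their differences were 3.11 ± 0.32 and 2.62 ± 0.28. The adipocyte-like median of Ifi204 (14.6 CPM) lay below the 51.4 to 98.1 CPM of near-empty droplets, and the macrophage-like median (106 CPM) above it. Parp9 and its partner Dtx3l, an ADP-ribosyltransferase and a ubiquitin ligase, went another way: Parp9 was lower in macrophage-like nuclei by -0.56 ± 0.09 and Dtx3l differed by -0.13 ± 0.14, which did not pass. The other member that was lower was Ifit2 (-0.94 ± 0.39, adjusted p = 0.044, edgeR), an RNA-binding protein.

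The member with the most counts in each role passed no test between groups in macrophage-like nuclei, except Trim30a, which is given further on. Stat2, a subunit of the transcription complex, had 54.1 and 61.1 CPM in mCherry SD, 59.1 and 57.8 in mCherry HFD, 62.9 and 59.5 in Tert HFD, and 41.0 and 50.3 in TertCi HFD. Herc6, the mouse ligase for ISG15, ran from 30 CPM in mCherry HFD rep129 to 47.9 in Tert HFD rep134. Parp14, another ADP-ribosyltransferase, ran from 91.2 CPM in Tert HFD rep136 to 156 in Tert HFD rep134, with 151 and 119 in mCherry SD. None of the 3 was called in any comparison of groups, although both TertCi HFD mice had less Stat2 than the other mice and both mCherry SD mice more Parp14 than the mCherry HFD mice. Mx1, a GTPase that blocks influenza virus, had 7.73 and 18.7 CPM in mCherry SD, 9.33 and 8.76 in mCherry HFD, 17.7 and 6.96 in Tert HFD, and 8.67 and 10.3 in TertCi HFD. Its spread within mCherry SD and within Tert HFD exceeded the differences between groups. Ifit2 stayed between 1.14 and 13.6 CPM.

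Progenitor-like nuclei, the stromal cells that can become adipocytes, were compared with macrophage-like nuclei in the same way. Of 23 members tested in 8 mice, 11 were higher in macrophage-like nuclei and 4 lower, and 65% of all 10343 genes differed (31.1% higher, 33.9% lower), so the share of members called was that of all genes. Oas2 (2.40 ± 0.24) and Mx1 (2.28 ± 0.34) led the first set, and Trim30a, a regulator of inflammatory signalling, was higher by 0.96 ± 0.14. Ifit2 and Slfn5 led the second. Ifit2 had 27.5, 38.2 and 48.7 CPM (lowest, median, highest) in progenitor-like nuclei against 1.14, 3.22 and 13.6 in macrophage-like nuclei, a log2 difference of -3.57 ± 0.23 with no overlap. Slfn5, a Schlafen family member, had 116, 185 and 241 CPM against 25.5, 35.7 and 51.3, a difference of -2.37 ± 0.09. Ifi204 (-0.94 ± 0.16) and Ifih1, the sensor of long double-stranded RNA also called MDA5 (-0.33 ± 0.13), completed the set.

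Endothelial-like nuclei differed from macrophage-like nuclei in both directions, with a median log2 difference of -0.22 over the members and 0.05 over all genes. In 7 mice, 4 of 20 members tested were higher in macrophage-like nuclei and 8 lower, with 38% of all 8572 genes called (21.7% higher, 16.3% lower). Ifi207 (1.08 ± 0.11), Slfn8 (0.96 ± 0.17), Ifi204 (0.87 ± 0.15) and Oas2 (0.74 ± 0.17) were the 4 higher genes. Slfn5 (-1.91 ± 0.17), Rsad2 (-1.47 ± 0.25) and Xaf1 (-1.26 ± 0.25) led those lower in macrophages. Rsad2 makes viperin, an enzyme that yields a chain-terminating nucleotide, and Xaf1 favours cell death. These nuclei also carried macrophage markers, summing to 3152 to 5495 CPM against 6430 to 13108 CPM in macrophage-like nuclei, and the part of these in the result was not tested. Mesothelial-like nuclei stood apart by Oasl2, a 2-5A synthetase-like protein, at 94.5 to 177 CPM in the 7 mice with enough nuclei against 0 to 60.0 CPM in any mouse of the other 6 classes of the heat map. No test of mesothelial-like against other nuclei was made.

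Among macrophages, the members separated the perivascular subset from the lipid-associated one. Perivascular macrophages are the resident cells marked by genes such as Cd163 and F13a1, and lipid-associated macrophages, marked by Gpnmb and Trem2, gather around dying adipocytes in obesity. The lipid-associated subset made up 53.8% and 46.8% of macrophage-like nuclei in the mCherry HFD mice, 0% in both mCherry SD mice, 2.64% and 0.482% in Tert HFD, and 0.218% and 0.877% in TertCi HFD. Both subsets had at least 20 nuclei in 3 mice, mCherry HFD rep128 and rep129 and Tert HFD rep134 (with 21 lipid-associated nuclei). In these, 22 of 29 members tested were lower in lipid-associated nuclei and 0 were higher (23 had an unadjusted p under 0.05). Over all 12627 genes 31% were called and 17% were lower, and the median log2 difference was -0.90 over members and 0.00 over all genes.

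**Figure D2:**
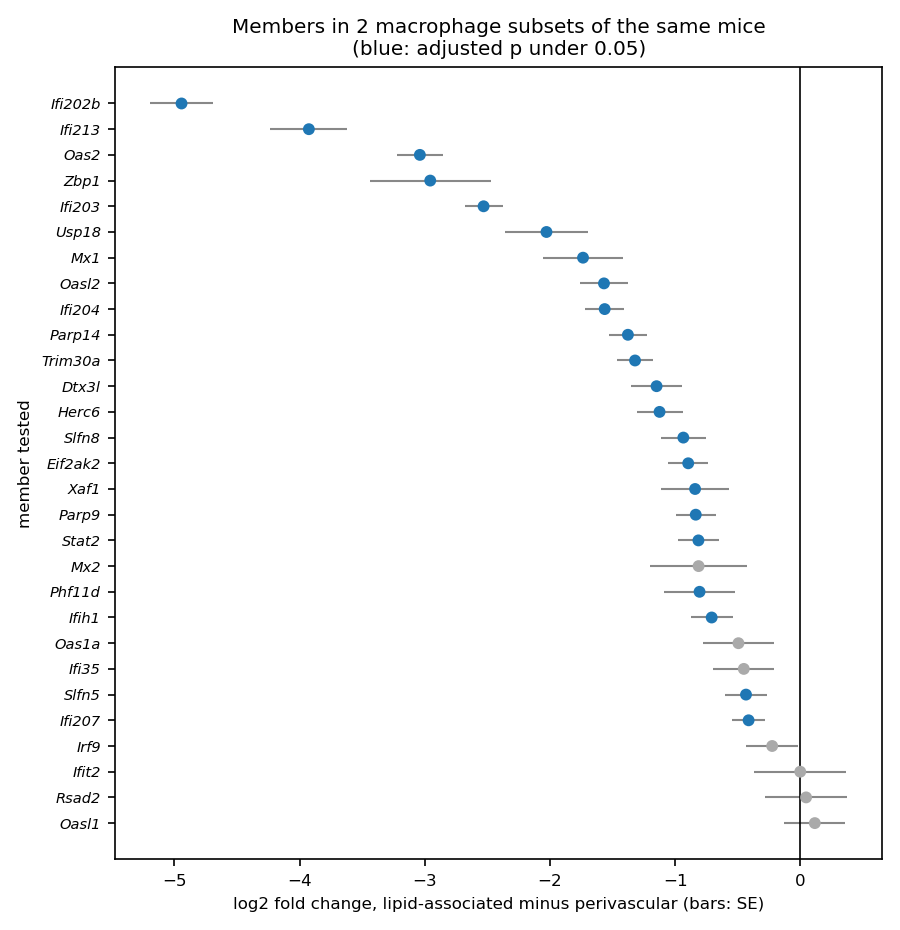
Log2 fold change of each of the 29 members tested, lipid-associated minus perivascular nuclei of the same 3 mice (horizontal axis; bars are standard errors). Points left of 0 are lower in lipid-associated nuclei, blue points passed the test, and Ifi202b at -4.94 lies farthest left while Oasl1 and Rsad2 sit close to 0.

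The widest gaps were again in members of the RNA and DNA sensing group. Ifi203 had 269, 272 and 267 CPM in perivascular nuclei of rep128, rep129 and rep134 and 42.3, 60.6 and 28.0 in their lipid-associated nuclei (-2.53 ± 0.15). Oas2 had 112, 93.7 and 118 against 14.1, 10.5 and 14 CPM (-3.04 ± 0.19). For both genes the lowest perivascular value was over 4 times the highest lipid-associated one, and the lipid-associated levels lay below the near-empty droplets of the same libraries (116 to 177 CPM for Ifi203, 25.7 to 39.1 for Oas2). Ifi213, of the same cluster, had 28.3, 41.2 and 35.5 against 1.87, 2.11 and 7.01 CPM (-3.93 ± 0.31). Zbp1, the sensor of Z-form nucleic acid that can start necroptosis, differed by -2.96 ± 0.48, and Usp18, which removes ISG15 and dampens the receptor, by -2.03 ± 0.33. Ifi202b had 84.9, 81.2 and 21 against 2.11, 5.79 and 0 CPM, and its perivascular level was lower in rep134 than in the mCherry HFD mice.

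Other members differed less or did not pass. Ifi207 was lower by only -0.41 ± 0.13 and Stat2 by -0.81 ± 0.16. Irf9, Ifit2, Rsad2, Oasl1, Oas1a, Ifi35 and Mx2 were not called: Oasl1 had 18.3, 15 and 19.7 CPM in perivascular and 21, 13.7 and 21 in lipid-associated nuclei. Of the 93 other interferon pathway genes tested, 54 were lower in lipid-associated nuclei and 5 higher. Without rep128 the count of lower members was 12, and without rep129 it was 19. Lipid-associated nuclei also carried more adipocyte-marker RNA (1019 to 1499 CPM over 11 markers, against 407 to 926 CPM in the perivascular nuclei of these mice). T and NK cell markers summed to 273 to 382 CPM in lipid-associated and 6.46 to 91.2 CPM in perivascular nuclei. The part of either in the result was not tested.

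In macrophage-like nuclei as a whole, 4 members fell on the high-fat diet. Of 28 tested, 0 were higher and 4 lower in mCherry HFD than in mCherry SD, and 18.2% of all genes were called in either direction (7.86% lower). Of 93 other pathway genes tested, 7 were higher and 7 lower for the diet, 9 higher and 5 lower for Tert, and 4 higher and 12 lower for TertCi. Beside this, 17.9% of all genes were called for Tert (6.64% higher) and 23.7% for TertCi (9.48% higher). Ifi203 had 290 and 202 CPM in mCherry SD mice, 110 and 122 in mCherry HFD mice, 208 and 135 in Tert HFD mice, and 192 and 196 in TertCi HFD mice. Both mCherry HFD mice lay below every other mouse, and the diet difference was -1.19 ± 0.21 (adjusted p = 0.0016, edgeR). Trim30a had 197 and 234 CPM in mCherry SD mice, 115 and 134.4 in mCherry HFD mice, 193 and 124 in Tert HFD mice, and 153 and 131 in TertCi HFD mice. Its diet groups did not overlap (-0.94 ± 0.19, adjusted p = 0.0039, edgeR), but Tert HFD rep136 and TertCi HFD rep140 lay within the mCherry HFD range. Ifi204 had 143 and 126 CPM in mCherry SD against 76.0 and 87.6 in mCherry HFD (-0.84 ± 0.23, adjusted p = 0.020, edgeR), with 128.7 and 75.8 in Tert HFD and 114 and 98.3 in TertCi HFD. Oas2 had 38.7 and 91.7 CPM in mCherry SD, 38.7 and 33.3 in mCherry HFD, 91.9 and 47.9 in Tert HFD, and 50.7 and 46.9 in TertCi HFD. The diet groups of Oas2 met at 38.7 CPM, and its call (-1.10 ± 0.33, adjusted p = 0.034) became 0.055 with DESeq2. Near-empty droplets ran the other way: in mCherry SD they held Ifi203 at 76.6 and 63.2, Trim30a at 87.3 and 95.4 and Ifi204 at 70.4 and 57.2 CPM, below the nuclei. In mCherry HFD they held 116 and 177, 133 and 143, and 98.1 and 89.9 CPM, above the nuclei. The perivascular nuclei of the mCherry HFD mice held 269 and 272, 194 and 239, and 143 and 175 CPM, above the near-empty droplets. Their lipid-associated nuclei held less Ifi203 than the droplets, as given above. The part of free RNA in these diet calls was not tested. Leaving out mCherry SD rep146 left 1 diet call, and leaving out mCherry HFD rep128 left 2.

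**Figure D3:**
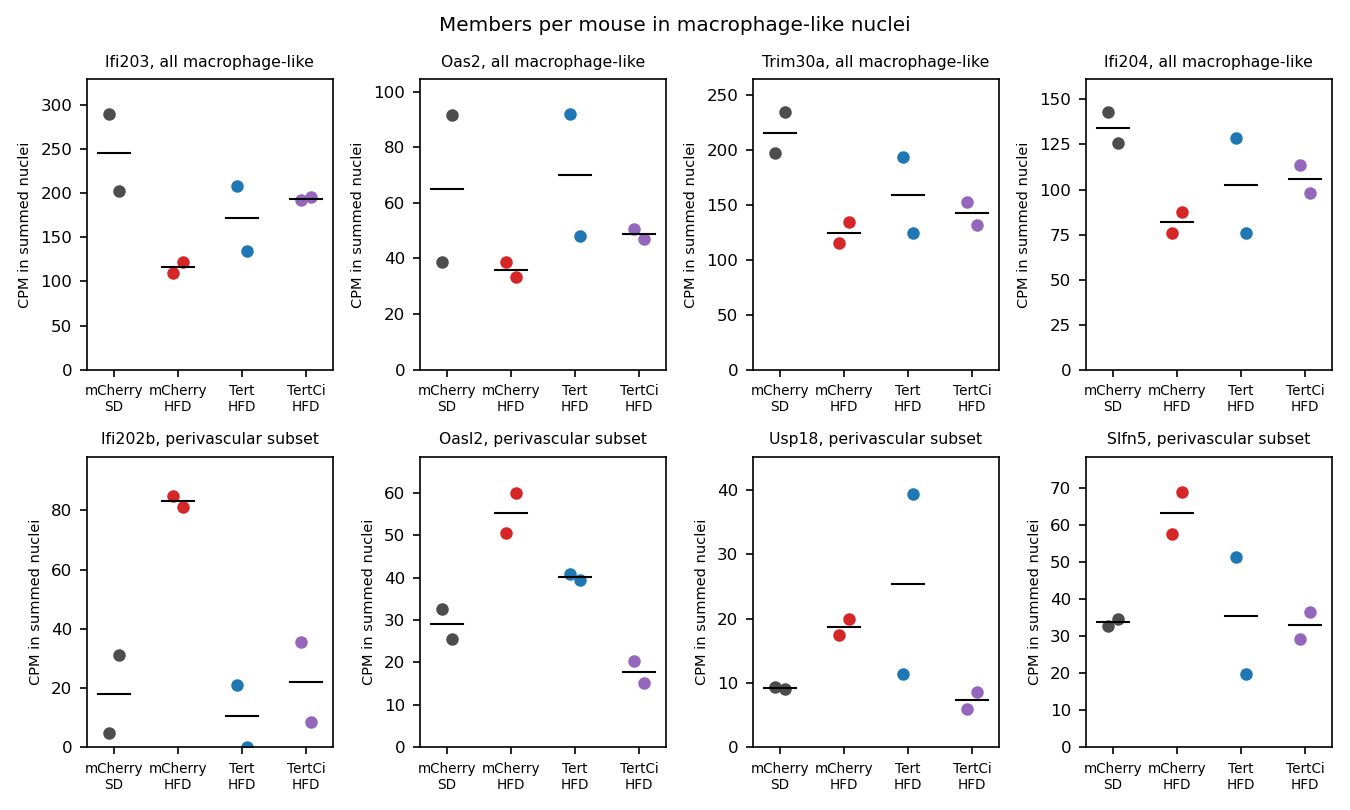
Counts per 1000000 UMIs (CPM, vertical axes, from 0) of 4 members in all macrophage-like nuclei (upper row) and 4 in the perivascular subset (lower row), 1 point per mouse and a line at the mean of each group of 2. In the upper row the mCherry HFD mice are low, and in the lower row they are high for Ifi202b, Oasl2 and Slfn5.

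Both transgenic groups were compared with the same mCherry HFD mice, so their values are given side by side. Ifi203 was higher in Tert HFD (0.70 ± 0.19, adjusted p = 0.021, edgeR) and in TertCi HFD (0.89 ± 0.19, adjusted p = 0.0051). Oas2 was higher in Tert HFD (1.11 ± 0.27, adjusted p = 0.012), and its TertCi difference of 0.58 ± 0.28 did not pass. No other member was called, against 17.9% of all genes for Tert (6.64% higher) and 23.7% for TertCi (9.48% higher). Without Tert HFD rep136 the Tert differences were 0.96 ± 0.17 for Ifi203 and 1.45 ± 0.23 for Oas2, and there were 8 Tert calls in place of 2 and 5 TertCi calls in place of 1. Without mCherry HFD rep128 or rep129 there were 0 Tert calls, without Tert HFD rep134 1, and without TertCi HFD rep138 0 TertCi calls. Between Tert HFD and TertCi HFD no member was called (0 with edgeR and with DESeq2, 1 at an unadjusted p under 0.05), and 0% of the 12907 genes tested were. A missed call does not show equal levels. The fitted Tert HFD level was the higher one for 22 of 28 members, with a median log2 difference of 0.30 over members and 0.02 over all genes, but this rested on Tert HFD rep134. Without rep134 it was the higher one for 10 of 29 members (median -0.08), and without rep136 for 29 of 33. In the perivascular subset it was the higher one for 19 of 25 members and, without rep134, for 11 of 25. Over all nuclei these counts were 32 and 24 of 38. It was the higher one for 13 of 22 members in progenitor-like, 12 of 20 in endothelial-like, 22 of 28 in adipocyte-like, 10 of 12 in mural-like and 16 of 20 in mesothelial-like nuclei. Without rep134 the counts in the same order were 10 of 24, 7 of 15, 18 of 30 and 5 of 14. Without rep136 they were 15 of 25, 18 of 25, 26 of 32 and 13 of 16. In mesothelial-like nuclei rep134 was the only Tert HFD mouse. Without TertCi HFD rep138 the adipocyte-like count was 15 of 30. In the other classes this comparison called 0 members too, with 5 at an unadjusted p under 0.05 in the perivascular subset (0.311% of genes called), 1 in progenitor-like nuclei (0%), 0 in endothelial-like (0.0275%), adipocyte-like, mural-like and mesothelial-like nuclei (0%), and 9 over all nuclei (0%).

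The makeup of the macrophages moved with these values. On the standard diet 81.0% and 92.2% of macrophage-like nuclei were perivascular, in mCherry HFD 20.5% and 18.1%, in Tert HFD 70.7% and 2.65%, and in TertCi HFD 69.6% and 53.9%. The subset that also carried adipocyte genes was smallest in the mCherry HFD mice, as given above. Within the perivascular subset Ifi203 had 313 and 215 CPM in mCherry SD mice, 269 and 272 in mCherry HFD mice, 267 and 236 in Tert HFD mice, and 251 and 271 in TertCi HFD mice. There the groups overlapped and the diet difference was -0.05 ± 0.20. The diet differences of Trim30a (-0.24 ± 0.22), Ifi204 (0.01 ± 0.24) and Oas2 (0.25 ± 0.28) did not pass either. A p that misses the threshold does not show that these levels were equal.

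Inside the perivascular subset Ifi202b was the member called in each comparison with mCherry HFD, and few others were. Of 25 members tested, 1 rose with the diet and 0 fell, 2 were lower in Tert HFD and 5 lower in TertCi HFD than in mCherry HFD, and 0 were higher in either. Over all 8371 genes 15% were called for diet (8.92% higher), 9.9% for Tert (7.07% lower) and 20% for TertCi (12.1% lower). Ifi202b had 4.67 and 31.0 CPM in mCherry SD, 84.9 and 81.2 in mCherry HFD, 21 and 0 in Tert HFD, and 35.6 and 8.61 in TertCi HFD. The mCherry HFD mice lay above every other mouse (diet 1.74 ± 0.47, adjusted p = 0.010; Tert -2.01 ± 0.39, adjusted p = 0.00066; TertCi -1.45 ± 0.35, adjusted p = 0.0025, edgeR). Oasl2 had 32.7 and 25.5 CPM in mCherry SD, 50.5 and 60.0 in mCherry HFD, 40.9 and 39.4 in Tert HFD, and 20.3 and 15.1 in TertCi HFD (TertCi -1.41 ± 0.33, adjusted p = 0.00085). Its groups did not overlap, with mCherry HFD highest and TertCi HFD lowest. In this subset the smallest value of a member above 0 was 19.7 CPM in Tert HFD rep136 and 4.67 CPM in mCherry SD rep144. Values of these mice near those levels rest on very few UMIs, and so does their rank among the mice.

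Usp18, Irf9 and Slfn5 completed the TertCi calls. Usp18 had 9.34 and 9.12 CPM in mCherry SD, 17.5 and 20.0 in mCherry HFD, 11.4 and 39.4 in Tert HFD, and 6.0 and 8.61 in TertCi HFD (TertCi -1.37 ± 0.49, adjusted p = 0.040, edgeR). Irf9 had 4.67 and 16.4, 28.1 and 31.2, 23.6 and 19.7, and 10.5 and 12.9 CPM in the same order (TertCi -1.30 ± 0.39, adjusted p = 0.012). Slfn5 had 32.7 and 34.7, 57.6 and 68.7, 51.3 and 19.7, and 29.3 and 36.6 CPM (TertCi -0.88 ± 0.29, adjusted p = 0.025). In all 3 genes both mCherry HFD mice lay above both TertCi HFD and both mCherry SD mice. Ifi207 had 434 and 467, 581 and 522, 400 and 158, and 408 and 394 CPM and was lower in Tert HFD (-0.63 ± 0.20, adjusted p = 0.034). Tert HFD rep136 had only 22 perivascular nuclei. Without it the Tert difference was -1.93 ± 0.41 for Ifi202b and -0.41 ± 0.19 for Ifi207, whose adjusted p became 0.21 (edgeR), which left 1 Tert call and 5 for TertCi. Without Tert HFD rep134 or mCherry HFD rep128 there was also 1 Tert call, and without mCherry HFD rep128, rep129 or TertCi HFD rep138 there were 2 TertCi calls.

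The perivascular comparison was not one of like with like. The subset joined 2 sub-clusters, 1 led by genes such as Timd4 and Mgl2 and 1 led by Ccl8, C6 and Wfdc17 in which Ifi202b was also a leading gene. The second held 99.4% and 97.8% of perivascular nuclei in the mCherry HFD mice, 4.69% and 0.840% in mCherry SD, 3.39% and 22.7% in Tert HFD, and 0.156% and 0% in TertCi HFD. Sub-cluster and group therefore cannot be told apart here. Free RNA of some of these genes differed between the groups as well. Near-empty droplets of mCherry HFD held Slfn5 at 84.0 and 119 CPM and Irf9 at 46.0 and 75.8 CPM. Both lay above the levels in the perivascular nuclei of these mice. In TertCi HFD they held Irf9 at 14.3 and 19.2 CPM, which is lower. Free Slfn5 stood there at 70.1 and 88.0 CPM, which overlaps mCherry HFD. Free Ifi207 stood at 301 and 309 CPM in mCherry HFD and 175 and 149 in Tert HFD, the same way as the nuclei. The part of free RNA in these calls was not tested. Near-empty droplets held Oasl2 at 30.7 and 28.3 CPM in mCherry SD, 29.7 and 39.8 in mCherry HFD and 10.1 and 15.7 in TertCi HFD. These values were near the nuclei in mCherry SD and in TertCi HFD rep140 and below them in mCherry HFD. In mCherry HFD they held Ifi202b at 8.89 and 3.66 CPM and Usp18 at 13.5 and 8.83 CPM. Adipocyte markers summed to 407 and 409 CPM in perivascular nuclei of mCherry HFD against 810 to 1888 CPM in those of the other groups, and their part in the result was not tested. With DESeq2 no member was called in any of these comparisons.

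The other genes of the interferon pathway list were also tested in the perivascular subset. Of 67, 8 were higher and 0 lower in mCherry HFD than in mCherry SD, beside 8.92% of all genes higher and 6.12% lower. In Tert HFD 3 were lower than in mCherry HFD (7.07% of all genes), and in TertCi HFD 15 were lower (12.1% of all genes). Ifi27l2a had 4.67 and 1.82 CPM in mCherry SD, 67.8 and 47.5 in mCherry HFD, 16.6 and 0 in Tert HFD, and 13.9 and 4.30 in TertCi HFD. Ifitm3, which stops viruses at the endosome, had 4.67 and 20.1, 49.9 and 58.7, 15.3 and 0, and 9.76 and 4.30 CPM in the same order. H2-D1, a class I antigen-presenting molecule, had 79.4 and 67.5, 164 and 155, 102 and 98.5, and 48.4 and 45.2 CPM (TertCi -1.65 ± 0.23, adjusted p = 2.0e-07, edgeR). Both mCherry HFD mice were highest in these 3 genes. Near-empty droplets of mCherry HFD held Ifitm3 at 66.2 and 143 CPM and Ifi27l2a at 114 and 163 CPM, above the nuclei, against 3.49 to 26.8 and 17.8 to 62.5 CPM in the other libraries. They held H2-D1 at 242 and 337 CPM, also above the nuclei, against 56.8 to 138.1 CPM in the others.

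In progenitor-like nuclei few members were called. Of 22 tested, 1 rose with the diet (11.2% of all 12032 genes called, 7.33% higher), 0 differed for Tert (10.3%, 5 members at an unadjusted p under 0.05, 0 with DESeq2 and 0 without rep136), and 1 was higher and 1 lower for TertCi (19.3%, with 6.71% higher and 12.6% lower). Slfn5 had 116 and 129.3 CPM in mCherry SD mice, 203 and 225 in mCherry HFD mice, 241 and 186 in Tert HFD mice, and 159 and 184 in TertCi HFD mice. All high-fat mice lay above both standard-diet mice (diet 0.58 ± 0.17, adjusted p = 0.042, edgeR). Free Slfn5 moved the same way, with near-empty droplets at 43.5 and 53.3 CPM in mCherry SD and 84.0 and 119 in mCherry HFD. Ifit2 had 33.2 and 37.9, 27.5 and 36.9, 43.1 and 38.6, and 48.7 and 42.4 CPM in the same order (TertCi 0.76 ± 0.21, adjusted p = 0.025), and near-empty droplets held it at 10.1 and 9.33 CPM in mCherry HFD and 15.9 and 13.9 in TertCi HFD, again the same way. Usp18 had 1.51 and 7.39, 18.2 and 15.1, 9.24 and 3.29, and 6.11 and 4.52 CPM (TertCi -1.41 ± 0.42, adjusted p = 0.031). Usp18 was thus highest in both mCherry HFD mice. Near-empty droplets held Usp18 at 13.5 and 8.83 CPM in mCherry HFD and at 6.37 and 2.61 CPM in TertCi HFD, also the same way, and the part of free RNA in these 3 calls was not tested. None of these 3 calls held with DESeq2. With 1 mouse left out at a time the diet call of Slfn5 was lost 6 times and kept 2 times. It was lost, among others, without rep146, rep128, rep129, rep138 or rep140. Both TertCi calls were lost without rep128, rep138 or rep140. Of 75 other pathway genes, 8 were higher for diet, 2 lower for Tert, and 1 higher and 16 lower for TertCi. Aim2, a DNA sensor of the inflammasome, had 4.52 and 3.69 CPM in mCherry SD and 17.2 and 32.0 in mCherry HFD (2.31 ± 0.52, adjusted p = 0.015, edgeR), and near-empty droplets held it at 39.4 and 23.7 against 94.7 and 80.6 CPM, above the nuclei. Adipocyte markers in these nuclei summed to 2629 and 2790 CPM in mCherry SD, 1379 and 1389 in mCherry HFD and 2044 to 2771 in the transgenic groups, and their part was not tested. The makeup of the progenitor-like nuclei also differed between the groups. Their largest cluster, of 1568 nuclei, reached 20 nuclei in no mCherry HFD mouse but in every other mouse. Clusters of 1116 and 474 nuclei reached 20 in both mCherry HFD mice but in no mCherry SD mouse. The part of this makeup in the calls was not tested.

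The diet differences of Ifi203, Trim30a and Ifi204 were unequal in macrophages and progenitors, by a test of the difference itself. Ifi203 in progenitor-like nuclei had 149 and 89.6 CPM in mCherry SD and 193 and 195 in mCherry HFD. Its diet difference of 0.51 ± 0.23 there did not pass (adjusted p = 0.16, edgeR), nor did those of Trim30a (0.24 ± 0.21) and Ifi204 (0.34 ± 0.24). The macrophage-like minus progenitor-like difference of these diet differences was -1.76 ± 0.20 on the log2 scale for Ifi203 (adjusted p = 0.00039, edgeR, with 5.3% of all genes called). It was -1.21 ± 0.21 for Trim30a and -1.16 ± 0.28 for Ifi204. The makeup of the macrophage-like and of the progenitor-like nuclei differed between the diets as given above, and its part in this result was not tested.

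In endothelial-like nuclei Ifi207 was the member called for both Tert and TertCi, and Ifi203 and Ifi204 of the same cluster were tested and not called. In endothelial-like nuclei 20 members were tested, and mCherry SD was there represented by rep146 alone with 23 nuclei. Ifi207 had 239 CPM in that mouse, 297 and 226 in mCherry HFD, 170 and 127 in Tert HFD, and 128.5 and 159 in TertCi HFD. It was lower in Tert HFD (-0.77 ± 0.23, adjusted p = 0.038, edgeR, 9.69% of genes called, 6.16% lower) and in TertCi HFD (-0.84 ± 0.23, adjusted p = 0.016, 18% called, 10.2% lower and 7.82% higher), with no overlap with mCherry HFD. Near-empty droplets of mCherry HFD held Ifi207 at 301 and 309 CPM, above these nuclei. They held it at 175 and 149 CPM in Tert HFD and 123 and 125 in TertCi HFD. Free Ifi207 thus moved the same way as the nuclei, and its part in these calls was not tested. Trim30a had 102 and 153 CPM in mCherry HFD and 199 and 171 in TertCi HFD (0.74 ± 0.24, adjusted p = 0.037), while near-empty droplets held it at 133 and 143 CPM in mCherry HFD and 86.6 and 68.8 in TertCi HFD. For the diet 0 members were called (3.45% of genes called, 3 members at an unadjusted p under 0.05), and DESeq2 called 0 in each endothelial comparison. Without mCherry HFD rep128, or without TertCi HFD rep138, both TertCi calls were lost, and the Tert call was lost without mCherry SD rep146 or any 1 of the mCherry HFD and Tert HFD mice.

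In mural-like nuclei, the pericytes and smooth muscle cells of vessel walls, 12 members could be tested. Ifi207 had 40.1 and 66.2 CPM in mCherry SD, 269 and 203 in mCherry HFD, 112 and 132 in Tert HFD, and 77.8 and 127 in TertCi HFD. It rose with the diet by 1.91 ± 0.36 (adjusted p = 0.0015, edgeR, 14.7% called, 7.78% higher) and was lower in TertCi HFD by -1.10 ± 0.31 (adjusted p = 0.027, 10.4% called, 5.8% lower). For Tert 0 members were called (5.93% of genes, 3 at an unadjusted p under 0.05, 0 with DESeq2). Ifi203 rose with the diet (73.5 and 85.5 against 178 and 259 CPM, 1.20 ± 0.31), and Ifi204 was lower in TertCi HFD (27.1 and 37.8 against 97.2 and 101 CPM, -1.47 ± 0.39). The mCherry HFD mice stood above all others in these genes. Near-empty droplets moved the same way: they held Ifi207 at 91.6 and 103 CPM in mCherry SD and 301 and 309 in mCherry HFD, above the mural-like nuclei of each of these mice. Free Ifi203 stood at 76.6 and 63.2 against 116 and 177 CPM, and free Ifi204 at 98.1 and 89.9 CPM in mCherry HFD and 66.4 and 51.4 in TertCi HFD. The part of free RNA in these calls was not tested. Without rep128 or rep138 both TertCi calls were lost, without rep129 1 was left, and the diet count was 1 without any 1 of the mCherry SD or mCherry HFD mice. DESeq2 called 1 member for the diet and 0 for TertCi, and with no filter on low counts the TertCi count was also 0. Adipocyte markers in mural-like nuclei summed to 18202 and 18234 CPM in mCherry SD, near the level of adipocyte-like nuclei, but to 1536 and 2171 CPM in mCherry HFD and 5776 to 8726 CPM in the rest, and their part was not tested.

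Adipocyte-like nuclei gave no call for any of 28 members in any comparison. At an unadjusted p under 0.05 the counts were 2 for diet, 0 for Tert and 3 for TertCi, DESeq2 called 0, and without Tert HFD rep136 the Tert count was 0, while 15.2%, 0.799% and 7.33% of all 14022 genes were called. With doublets kept the counts of members called were 6, 2 and 6, and with no filter on low counts 1 was called for the diet. The mCherry HFD mice had 117 and 30 adipocyte-like nuclei. Among 84 other pathway genes tested there, 7 rose with the diet and 1, Irf2, fell, beside 9.62% of all genes higher and 5.61% lower. For Tert 0 were called, and for TertCi 4 were lower (Ifi27l2a, H2-D1, Ifitm2 and Ifitm3; 4.39% of all genes lower). Free RNA of these 4 genes was lower in TertCi HFD as well: near-empty droplets held Ifitm2 at 49.0 and 97.1 CPM in mCherry HFD and 5.31 and 2.61 in TertCi HFD, and Ifitm3 at 66.2 and 143 against 7.97 and 3.49 CPM. Free Ifi27l2a stood at 114 and 163 against 57.4 and 41.8 CPM and free H2-D1 at 242 and 337 against 56.8 and 74.1 CPM. The part of free RNA in these calls was not tested. The chemokine gene Cxcl10 had 0 and 3.18 CPM in mCherry SD and 21.2 and 24.1 in mCherry HFD (3.24 ± 0.92, adjusted p = 0.042, edgeR), and H2-D1 had 19.9 and 25.3 against 106 and 116 CPM (1.98 ± 0.26, adjusted p = 0.0019). Near-empty droplets of mCherry HFD held Cxcl10 at 2.76 and 3.16 CPM, below the nuclei. Free H2-D1 rose the same way as the nuclei, from 65.1 and 66.4 CPM in mCherry SD to 242 and 337 in mCherry HFD. It lay above the adipocyte-like nuclei of each of these mice, and its part in the diet call was not tested. In mesothelial-like nuclei 0 of 20 members were called (3.65%, 0.801% and 2.22% of genes for diet, Tert and TertCi; 3, 0 and 1 members at an unadjusted p under 0.05), with 1 mouse in Tert HFD.

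Summed over all nuclei without regard to class, 9 of the 38 members rose with the diet and 1 fell. Beside this, 40.7% of all 21101 genes were called (22.2% higher, 18.5% lower), so the share of members that rose was near that of all genes. Oas1a had 2.01 and 1.94 CPM in mCherry SD, 8.65 and 8.89 in mCherry HFD, 5.44 and 3.02 in Tert HFD, and 2.38 and 2.02 in TertCi HFD (diet 1.69 ± 0.28, TertCi -1.52 ± 0.28). Near-empty droplets held Oas1a at 2.81 and 2.63 CPM in mCherry SD, 7.36 and 10.5 in mCherry HFD and 0.531 and 0.871 in TertCi HFD, so that free RNA too was highest in mCherry HFD of these 3 groups. Oasl1 had 2.52 and 2.06, 10.2 and 8.72, 6.19 and 3.15, and 1.75 and 2.69 CPM in that order (diet 1.59 ± 0.36, TertCi -1.64 ± 0.36). Parp9 was the gene that fell (-0.70 ± 0.23), with 79.8 and 66.5 CPM in mCherry SD and 57.6 and 67.0 in mCherry HFD, which overlap. Macrophage-like nuclei were 79 in number in mCherry SD rep144 and 3260 and 1263 in those of mCherry HFD, and the part of cell makeup in these sums was not tested. For TertCi 2 members were higher and 6 lower (35.5% called, 16.2% higher and 19.3% lower), for Tert 2 higher and 1 lower (21.7%, with 11% higher and 10.8% lower), and 0 without Tert HFD rep136. The diet count was 2 without mCherry HFD rep128, 3 without rep129, 4 without mCherry SD rep146 and 6 without rep144.

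The share of nuclei in which several members were detected was compared after thinning each nucleus to 2000 UMIs, which left out 2376 nuclei that were shallower (1945 of them in Tert HFD rep136 and 431 in mCherry HFD rep129). At least 3 members were seen in 51.7% ± 7.39 (SD, n = 2) of macrophage-like nuclei of the mCherry SD mice, 37.7% ± 0.215 for mCherry HFD, 39.2% ± 18.9 for Tert HFD and 40.4% ± 3.18 for TertCi HFD. The Tert HFD mice had 52.5% (rep134) and 25.8% (rep136, 120 nuclei deep enough). In progenitor-like nuclei the shares were 26.3% ± 3.32, 41.8% ± 4.36, 34.2% ± 3.73 and 31.0% ± 3.28 in the same order, and in adipocyte-like nuclei 7.20% ± 1.17, 5.47% ± 1.69, 7.65% ± 1.67 and 4.61% ± 1.55. Adipocyte-like nuclei reached at most 8.83% in a mouse, and the other 2 classes were at 23.9% or more in each. Without thinning, the macrophage-like share ran from 22.5% to 92.2% over the mice. No test of these shares was made.

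**Figure D4:**
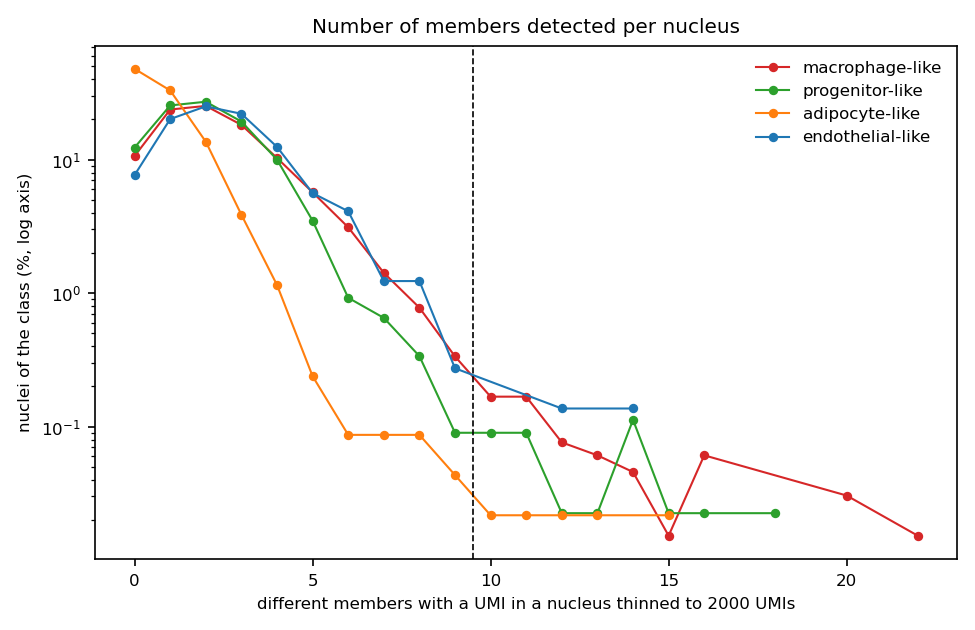
Percent of nuclei of each class (vertical log axis) by the number of different members with a UMI after thinning to 2000 UMIs (horizontal axis), over all mice, with a line per class. Most nuclei have few members, adipocyte-like nuclei the fewest, and a thin tail extends past the dashed line at 10 members.

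A few nuclei carried many members at once. Of 27833 nuclei deep enough, 97 (0.349%, exact Clopper-Pearson 95% interval 0.283% to 0.425%, counting error only) had 10 or more members. The limit of 10 was chosen after the data were seen and marks a range, not a cell type: 162 nuclei had 8 or 9 members and 53 had 10 or 11, and the highest count was 22. They came from all 8 mice. The shares were 0.196% and 0.200% in mCherry SD, 0.579% and 0.490% in mCherry HFD, 0.488% and 0.0807% in Tert HFD, and 0.175% and 0.152% in TertCi HFD. By class they were 42 of 6557 macrophage-like (0.641%), 18 of 4444 progenitor-like (0.405%) and 5 of 4607 adipocyte-like nuclei (0.109%). They were spread over 32 of the 44 clusters, and no cluster held more than 14.4% of them. Their median depth of 5713 UMIs was near the 5675 of other nuclei, and their median doublet score was 0.0268 against 0.0365.

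These 97 nuclei held a large part of the RNA of some members and little of others. They contained 17.6% of all Rsad2 UMIs (219 of 1243), 17.0% of Mx1, 16.6% of Slfn1, 16.3% of Oas3, 15.1% of Ifit1, 13.4% of Cmpk2, 13% of Isg15, 12.5% of Mx2, 12.3% of Ifi213, 11.8% of Ifit3 and 10.6% of Ifi44. Of Ifi207 they held 1.04%, of Ifi35 1.13%, of Parp9 1.27% and of Irf9 0.581%. Since the members chose these nuclei, their own levels are a description. Isg15, the ubiquitin-like modifier, and Ifit1, which binds foreign 5′ ends of RNA, were otherwise scarce, at 0.777 and 1.5 CPM in the other nuclei. Both kinds include members with and without the motif: of the first, Isg15, Ifit1, Ifit3, Rsad2, Oas3 and Ifi213 hold it and Cmpk2, Slfn1 and Ifi44 do not, and of the second Ifi207 holds it and Irf9 and Ifi35 do not.

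**Figure D5:**
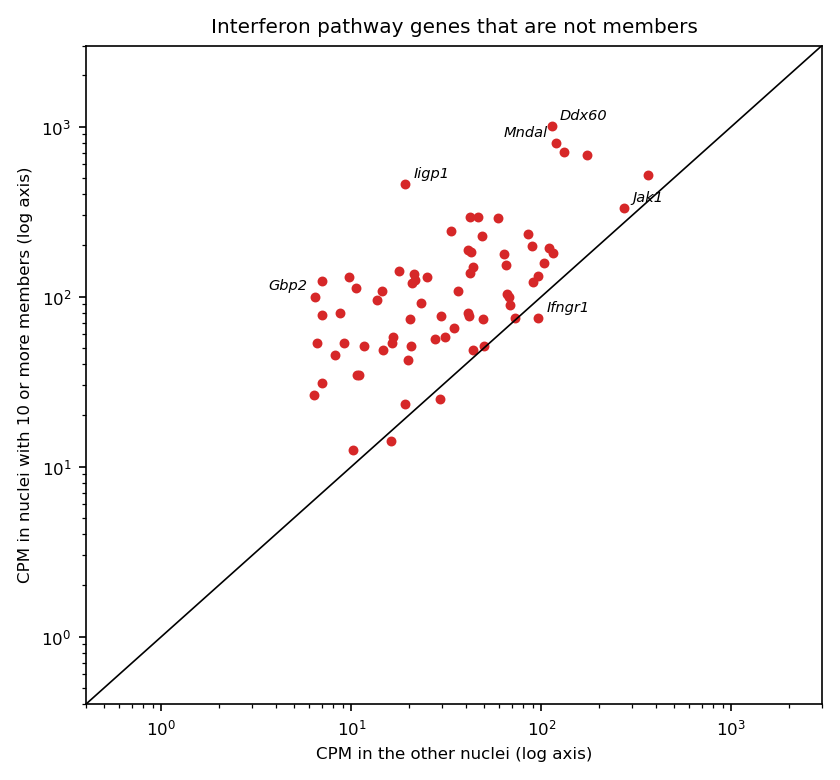
CPM of interferon pathway genes that are not members and whose level in the other nuclei would give at least 4 UMIs in the 97, in the 97 nuclei with 10 or more members (vertical log axis) against all other nuclei (horizontal log axis), 1 point per gene, with the line of equal level. Most points lie above the line, Iigp1 far above it, and Jak1 and Ifngr1 near it.

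Pathway genes that are not members were not counted in choosing these nuclei. Some of them belong to the Ifi200, Oas and Slfn families, whose reads may be split with members. The classes also differed in their share of these nuclei, and the part of either in the result was not tested. For 72 pathway genes the level in the other nuclei would give at least 4 UMIs in the 97 nuclei. That limit does not use the 97 nuclei's own counts. Of these 72 genes, 49 were over 2-fold and 23 over 5-fold higher in the 97 nuclei, with a median fold of 3.29. Of all 11406 genes under the same limit, 5.07% were over 2-fold and 0.377% over 5-fold higher, with a median fold of 1.00. Iigp1, a GTPase that attacks parasite vacuoles, had 459 against 19.1 CPM (24.0-fold) and was higher in 8 of 8 mice. Ddx60, a helicase, had 1008 against 113 CPM and the RNA sensor gene Ddx58 242 against 33.5 CPM, each higher in 8 of 8 mice. Cxcl10, too scarce for that limit, had 57.8 against 2.24 CPM (higher in 5 of 8 mice). The receptor and kinase genes upstream differed little: Ifnar1 had 51.5 against 49.6 CPM, Jak1 333 against 272, and Ifngr1 74.9 against 96.4. These folds are descriptions over pooled nuclei, given without a test.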

How the data were processed

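The authors deposited raw UMI counts of every feature in every barcode, neither normalised nor filtered to nuclei. The file headers name Cell Ranger 7.1.0, while the submitters' processing notes name Cell Ranger 5.0.1, bcl2fastq 2.20.0 and mm39, and the counting of introns is not given in the sources used here. The labels' protocols describe batches taken in random order, but the batch of each mouse was not used here, and nothing shows that p-values cover more than the spread between mice.

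Barcodes were called nuclei from 987 to 4705 UMIs upward, depending on the library (minimum 300 genes, maximum 5% of UMIs mitochondrial), and doublets were removed by a simulated-doublet score. Clusters (scanpy 1.11.5, interferon genes left out) were named from markers, and "mixed" or unnamed clusters entered no class. Counts were summed per mouse and class of at least 20 nuclei and tested over all genes with edgeR 4.0.16, or DESeq2 1.42.0 as an alternative, adjusted by Benjamini-Hochberg. In the macrophage diet comparison, simulated for 12484 genes, 16.5% of 2-fold and 68.0% of 4-fold changes were recovered. Called members, the highest member of each role and up to 6 called pathway genes per comparison could be given by mouse. The members and lists were chosen with earlier results of these data known. A further gene of the pathway list is not reported here by name.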

Additional observations from a re-analysis of the deposited data

Results flagged for a closer look

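Several members differed in their response between classes of nuclei in a test of the difference itself (edgeR, mouse as a block, p adjusted by Benjamini-Hochberg). Between macrophage-like and progenitor-like nuclei the diet difference differed for Ifi203 (-1.76 ± 0.20, adjusted p = 0.00039), Trim30a (-1.21 ± 0.21, adjusted p = 0.0045) and Ifi204 (-1.16 ± 0.28, adjusted p = 0.032). For the difference from mCherry HFD, the macrophage-like minus progenitor-like value was 1.28 ± 0.17 for Ifi203 in Tert HFD (adjusted p = 0.0027), 1.18 ± 0.17 for Ifi203 in TertCi HFD (adjusted p = 0.0020) and 0.69 ± 0.18 for Trim30a in TertCi HFD (adjusted p = 0.044). The fitted differences had opposite signs in the classes. For Ifi203 they were 0.70 and 0.89 in macrophage-like nuclei (Tert and TertCi) and -0.54 and -0.25 in progenitor-like nuclei, and for Trim30a in TertCi HFD 0.35 and -0.31. The progenitor-like ones and that of Trim30a did not pass. Between macrophage-like and endothelial-like nuclei the TertCi difference of Slfn5 differed by -1.30 ± 0.28 (adjusted p = 0.019). Of all genes, 5.3% (diet), 2.54% (Tert) and 4.7% (TertCi) were called against progenitors, and 1.69% (TertCi) against endothelial-like nuclei. These comparisons share the mCherry HFD mice. The subsets within the macrophage-like nuclei and the clusters within the progenitor-like nuclei differed between groups.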

How the results depend on the processing

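No paired analysis was possible because the groups share no replicate number. Under the alternatives run no called member changed direction. The median Tert HFD minus TertCi HFD difference of the members fell below 0 without rep134 in several classes. It was then -0.08 in macrophage-like, -0.29 in perivascular, -0.18 in progenitor-like and -0.18 in mural-like nuclei. Counts of called members moved as follows. With DESeq2's test the counts were 0 in progenitor-like (diet, TertCi), endothelial-like (Tert, TertCi) and perivascular nuclei (diet, Tert, TertCi), and in mural-like nuclei 1 (diet) and 0 (TertCi). DESeq2's size factors in edgeR gave 1 for endothelial TertCi. With interferon genes kept in the clustering there were 2 for macrophage TertCi and 1 each for endothelial diet and perivascular Tert. With doublets kept there were 7 for macrophage Tert, 4 for macrophage TertCi, 6, 2 and 6 for adipocyte diet, Tert and TertCi, 1 each for endothelial diet, perivascular Tert and mural diet, and 0 for perivascular diet. With no filter on low counts there was 1 for adipocyte diet, perivascular Tert and all nuclei (Tert against TertCi), 3 for perivascular TertCi, and 0 for endothelial Tert and mural TertCi, with 7 members higher in macrophage-like than in endothelial-like nuclei and 18 than in progenitor-like nuclei. With one UMI floor in every library there were 6 for macrophage Tert, 0 for progenitor diet and TertCi, 0, 1 and 1 for perivascular diet, Tert and TertCi, 1 for all nuclei Tert, 1 member lower in macrophage-like than in adipocyte-like nuclei and 7 higher than in endothelial-like nuclei. Leaving out each replicate gave, for diet, Tert and TertCi, 1 to 5, 0 to 8 and 0 to 5 in macrophage-like nuclei, 2 to 10, 0 to 3 and 2 to 10 in all nuclei, and 1 to 1, 1 to 2 and 2 to 5 in perivascular nuclei. It gave 0 to 1 (diet) and 0 to 3 (TertCi) in progenitor-like, 0 to 2 (Tert) and 0 to 2 (TertCi) in endothelial-like, and 1 to 3 (diet) and 0 to 2 (TertCi) in mural-like nuclei, 12 to 22 members lower in lipid-associated nuclei, and 1 to 2 lower in macrophage-like than in adipocyte-like nuclei. An arm left with 1 mouse is assumed to vary like the other groups. The mean share of macrophage-like nuclei with at least 3 members was 42.3%, 67.1% with at least 2, 13.5% with at least 5, 0.575% with at least 10 (added after seeing the data), 68.7% without thinning and 16.3% at 1000 UMIs. For single members, 220 values stayed called and 48 lost the call under the alternatives, and 235 and 133 when a mouse was left out. The causes were not tested. In the diet comparison, the share of simulated 4-fold changes recovered was 68.0% in macrophage-like and in adipocyte-like nuclei and 77.8% in progenitor-like nuclei.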
